A study of Homo sapiens with 6 samples.

Results

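The peroxisome proliferator-activated receptors (PPARs), their partners and coactivators, and the factors that govern the making of mitochondria were followed in SU-CCS-1 cells after knockdown of EWSR1::ATF1 (EA1). The 10 genes were PPARA, PPARD, PPARG, PPARGC1A, PPARGC1B, RXRA, RXRB, ESRRA, NRF1 and TFAM, chosen by name from the 18118 genes of the counts table, and all 10 were found there. SU-CCS-1 is an established cell line from a human clear cell sarcoma that carries EA1, the fusion of EWSR1 with ATF1. Bulk poly(A) RNA-seq was made of 6 libraries, 2 of cells given a control (scramble) siRNA, 2 given EA1 siRNA 1 and 2 given EA1 siRNA 2. The labels tell these EA1 siRNAs apart by number, while the study's methods describe a single siRNA against EA1, so that a comparison between them is one of the labelled groups, and how they differ is not given in the sources used here. All 6 libraries came from this 1 line, so that every group carried the fusion and its own genetic background, and the groups differed by their labels in the siRNA alone. In bulk RNA, a change in every cell and a change in the share of cells that express a gene cannot be told apart. The sources used here do not say whether the replicates of a condition were separate cultures, and p-values therefore measure the spread between these samples, which may be technical.

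PPARs are nuclear receptors for fatty acids that bind DNA as pairs with a retinoid X receptor (RXR) and switch on genes for the transport, storage and oxidation of lipids. The PGC-1 coactivators bind PPARs, the estrogen-related receptor ERRα and NRF1, and through them raise genes for mitochondrial proteins. TFAM, one of the genes served by NRF1, enters mitochondria, where it packages mitochondrial DNA and starts its transcription. In pigment cells and melanoma, transcription of PPARGC1A is known to depend on MITF, and in liver it is known to be switched on by CREB, a relative of ATF1.

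The DNA before the start of PPARGC1A holds the letters of both those factors. Bases are counted back from the start of the GENCODE canonical transcript, which lies on the minus strand of chromosome 4 (hg38). This start was added, for PPARGC1A alone, because the RefSeq starts listed for the gene lie elsewhere. A full ATF/CREB element, TGACGTCA, began 132 bases before the start and a MITF box, TCATGTG, began 48 bases before it. Both are shown in capitals, 5′ to 3′ on the gene's strand, at chr4:23890161-23890190 and chr4:23890078-23890107. The first stretch lies in an exon of another PPARGC1A transcript.

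PPARGC1A ATF/CREB element: ctgcctttgagTGACGTCAcgagttagagc
PPARGC1A MITF box: ttaatagctttgTCATGTGactggggactg

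Both strands were searched, and among 35116 windows of the same length, 250 bases before RefSeq starts, 1.65% held TGACGTCA and 2.52% held TCATGTG, which was also found before a start of PPARG. The shorter ATF/CREB motif TGACG, which lies within the full element, was held by 21.2% of the windows and by those of PPARD and of a far upstream start of PPARGC1A. That upstream start also had an E-box, CACGTG, a motif of 6.34% of the windows, which overlaps its TGACG. The AP1 motif TGAGTCA, in 4.2% of the windows, was in no window searched for the 10 genes. The windows of RXRA and the window of PPARGC1B held no match to any of the 8 motifs. That PPARGC1B window, chr5:149771690-149771939, lies within the gene. The bases before its GENCODE canonical start, at 149730310, were not searched.

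The windows were also searched for the core motif of NRF1. RefSeq gave a start for 9 of the 10 genes (GRCh38.p14), with 18 starts in all, and not for NRF1. The NRF1 core GCGCANGCG was found on the minus strand 62 bases before the start of TFAM. That start, at 58385410, is also the GENCODE canonical start. A longer TFAM transcript begins at 58385345, so that the core lies in its first exon. The sequence shown runs from 250 bases before the start, at chr10:58385160-58385374 on the plus strand, with the core in capitals.

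TFAM promoter: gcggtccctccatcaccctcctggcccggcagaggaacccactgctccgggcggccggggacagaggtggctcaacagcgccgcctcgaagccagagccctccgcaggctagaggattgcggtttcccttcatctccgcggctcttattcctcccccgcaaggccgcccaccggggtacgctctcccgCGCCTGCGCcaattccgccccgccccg

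The same core was found before ESRRA, RXRB and the second listed start of PPARA, each shown in 30 bases on the strand of its gene. The PPARA stretch lies after the GENCODE canonical start of that gene, at 46150526. The part of these matches in the responses given below was not tested.

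ESRRA NRF1 core: ctcgtccgggcGCGCAGGCGccgcccgccc
RXRB NRF1 core: ctgcactgacaCGCATGCGCgagtgtggag
PPARA NRF1 core: gggctgggcgGCGCATGCGCggggcccggg

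These stretches lie at chr11:64305420-64305449 (plus strand), chr6:33200767-33200796 (minus strand) and chr22:46150758-46150787 (plus strand). In PPARA the core was matched on both strands, in overlapping places. The core was held by 6.56% of all windows. Of the other motifs searched, the ETS motif of GABP, CCGGAAG, was in 8.52% of windows and before the first start of PPARA, and the ERR motif AAGGTCA was in 3.44% and before starts of PPARG. A match describes letters in a window, and binding was not measured in these libraries.

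The libraries held 5942808 to 7599305 counts. ATF1, whose counts hold both the fusion and any native transcript, had 549 and 680 counts in control libraries and 122 to 159 in the 4 knockdown libraries. The log2FC of ATF1, averaged over both siRNAs, was 1.99 (edgeR's quasi-likelihood test, Benjamini-Hochberg adjusted p = 9.70e-08). EWSR1, which gives the other end of the fusion and is also expressed by itself, had a log2FC of 0.11 under EA1 siRNA 1 (adjusted p = 0.45) and 0.04 under EA1 siRNA 2 (adjusted p = 0.789). The labelled cell type was checked with 8 markers of clear cell sarcoma and melanocytes, all of which were in the counts, MLANA at 0 to 24 counts per library. Their summed level was 3150 to 3290 CPM (read counts scaled to the size of the library, normalized by TMM) in control and 8210 to 12500 in knockdown libraries. No hepatocyte or skeletal muscle marker was in the table, and of 6 adipocyte markers, LIPE alone was, at 2.14 to 6.3 CPM.

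Throughout, a log2FC compares control with knockdown, so that a positive value means higher with EA1 present and a negative value higher after its knockdown. Genes with an adjusted p under 0.05 in edgeR were called. Of the 10 genes, 9 passed the filter on low counts and PPARG did not. Under EA1 siRNA 1, 5 of the 9 were called, 2 higher in control (PPARGC1B and TFAM) and 3 lower (PPARA, PPARGC1A and RXRB). Of all 14571 genes tested in that comparison, 20.3% were higher in control and 19.9% lower. Under EA1 siRNA 2, 3 of the 9 were called, TFAM higher and PPARA and PPARGC1A lower, where 18.2% and 18.5% of all genes tested were called. In the average over both siRNAs, 4 of the 9 were called, TFAM and PPARGC1B higher and PPARA and PPARGC1A lower, beside 22.1% and 21.5% of all genes. The median log2FC of the 9 genes was -0.08 in the average, against -0.01 over all genes tested. The 2 siRNAs differed for 1 of the 9, PPARGC1B, where 2.24% of all genes were called.

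**Figure D1:**
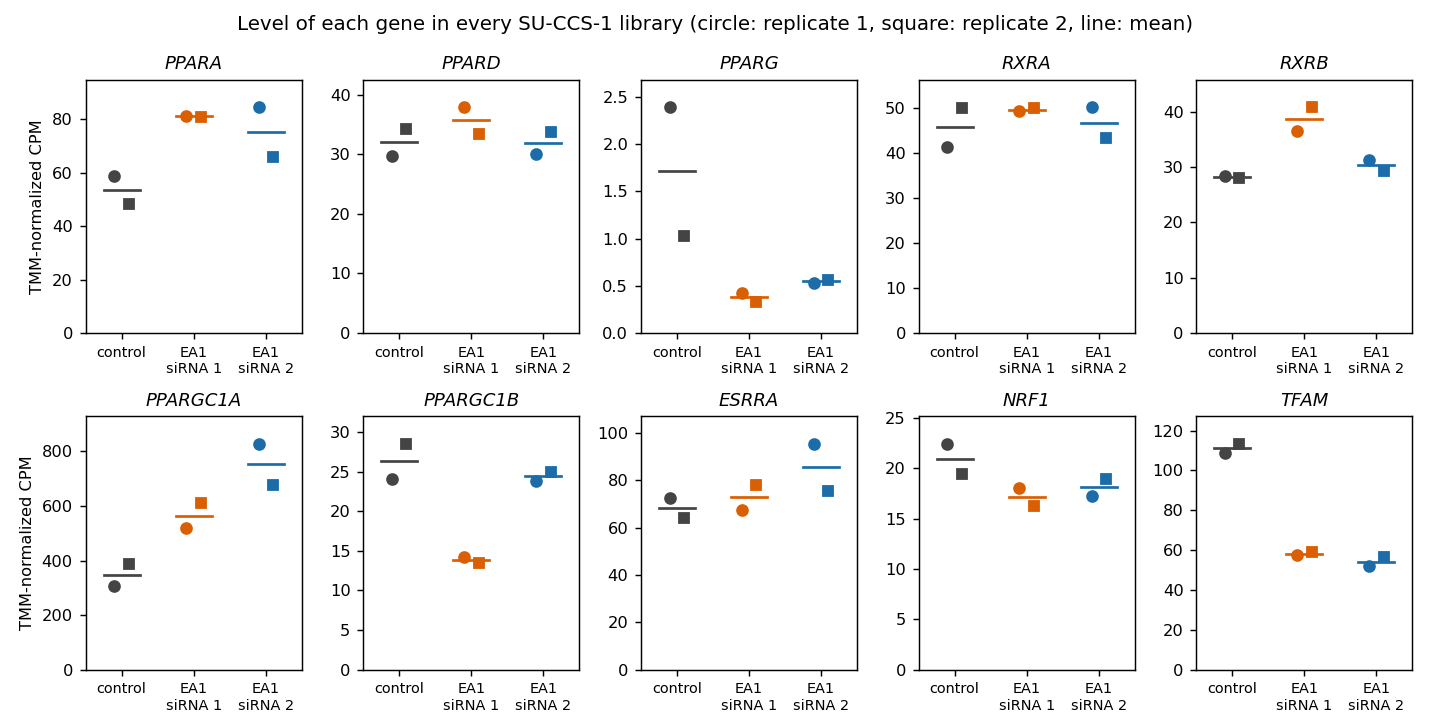
TMM-normalized CPM (vertical axes, each from 0) of the 10 genes in the control, EA1 siRNA 1 and EA1 siRNA 2 libraries. Points are libraries and lines are means of 2. TFAM lies at 108.7 and 113.5 in control and at 52.0 to 59.1 after knockdown, and PPARGC1A lies higher in all 4 knockdown libraries than in either control library.

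PPARGC1A encodes PGC-1α, the best known of the coactivators (ENSG00000109819, chromosome 4, 23755041 to 23904089, minus strand, hg38). Its level was 307.1 and 387.8 CPM in control libraries, 517.9 and 609.3 under EA1 siRNA 1, and 828.6 and 676.8 under EA1 siRNA 2. All 4 knockdown libraries were above both control libraries, and the 2 siRNAs did not overlap. PPARGC1A rose 1.62-fold under EA1 siRNA 1 (log2FC -0.70, SE 0.14, adjusted p = 0.00242) and 2.16-fold under EA1 siRNA 2 (log2FC -1.11, SE 0.14, adjusted p = 1.21e-04). Between the siRNAs the log2FC was -0.42, with a 95% interval of -0.73 to -0.10 and an adjusted p of 0.166. That adjusted p was 0.0254 without replicate 2 of EA1 siRNA 2, with a log2FC of -0.55.

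Per kilobase of exon, PPARGC1A was the most abundant of the 10 genes in every condition, at 32 ± 5.25 CPM per kb in control, 51.9 ± 5.94 under EA1 siRNA 1 and 69.2 ± 9.88 under EA1 siRNA 2 (SD, n = 2). Its control level was higher than that of 92.1% of the genes tested. The summed level of the 8 melanocytic and clear cell sarcoma markers, given above, was also higher in all 4 knockdown libraries. SOX10 overlapped, at 785.5 and 867.7 CPM in control and 847.4 to 979.0 in knockdown libraries, while each of the others was higher in every knockdown library than in control. Among them MITF, the pigment cell factor named above, was at 636 and 671 CPM in control and 1083 to 1175 in knockdown libraries (averaged log2FC -0.78, adjusted p = 3.97e-05). The part of these markers in the rise of PPARGC1A was not tested.

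PPARGC1B encodes PGC-1β, the close relative of PGC-1α (ENSG00000155846, chromosome 5, 149730298 to 149855022, plus strand). It had 24.1 and 28.5 CPM in control libraries, 14.2 and 13.5 under EA1 siRNA 1, and 23.85 and 24.99 under EA1 siRNA 2. The EA1 siRNA 1 libraries were below all others, and those of EA1 siRNA 2 overlapped control. PPARGC1B fell 1.9-fold under EA1 siRNA 1 (log2FC 0.93, SE 0.17, adjusted p = 0.00131). Under EA1 siRNA 2 its log2FC was 0.11, with a 95% interval of -0.25 to 0.47 (adjusted p = 0.651).

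The difference between the siRNAs was itself called for PPARGC1B, with a log2FC of -0.82 (SE 0.18, adjusted p = 0.0383). That call was lost without either control library (adjusted p = 0.0533 and 0.0548), without either EA1 siRNA 1 library (0.154 and 0.323), without replicate 2 of EA1 siRNA 2 (0.0524) and with the control libraries left out of the fit (0.0661). The averaged call (log2FC 0.52, adjusted p = 0.0123) rests on EA1 siRNA 1, and it was lost with DESeq2 (adjusted p = 0.0505), with the 4 knockdown libraries taken as 1 condition (0.173) and without control replicate 2 (0.123).

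PPRC1, the third member of the PGC-1 family, fell with both siRNAs. It was at 96.1 and 106 CPM in control and at 46.7 to 59.1 in knockdown libraries (averaged log2FC 0.95, adjusted p = 2.86e-05). Within each library and per kilobase of exon, PPARGC1A exceeded PPARGC1B by 15.1 and 16.1 times in control, by 43.2 and 53.5 times under EA1 siRNA 1 and by 41.2 and 32.1 times under EA1 siRNA 2. PPARGC1A made up 61.6% and 64.6% of the summed level of the 3 genes in control libraries and 84.3% to 88.6% in knockdown libraries, with no overlap.

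**Figure D2:**
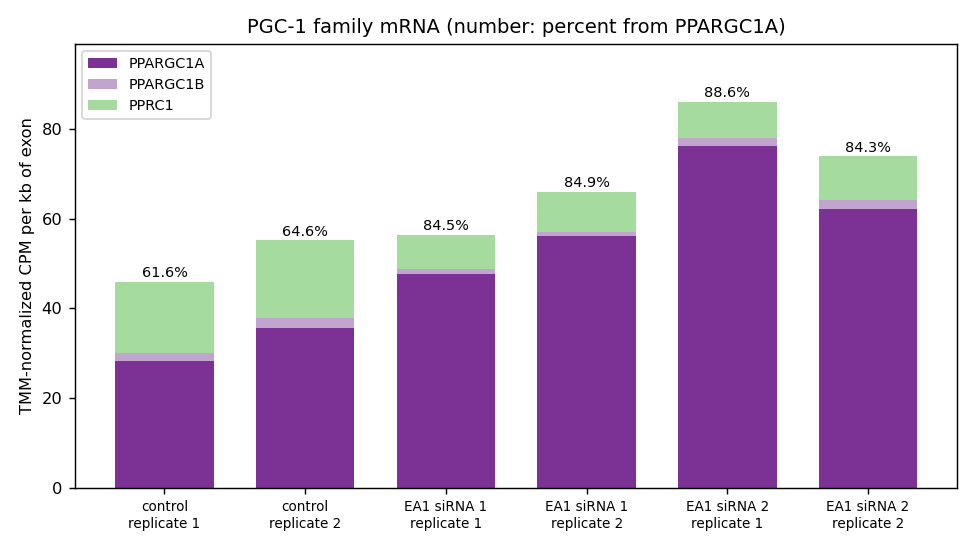
TMM-normalized CPM per kb of exon of PPARGC1A, PPARGC1B and PPRC1, stacked, in each of the 6 libraries. The number over a bar is the percent of the stack from PPARGC1A, 61.6 and 64.6 in control and 84.3 to 88.6 after knockdown.

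TFAM is the packaging protein and transcription factor of mitochondrial DNA (ENSG00000108064, chromosome 10, 58385345 to 58399220, plus strand). It was at 108.7 and 113.5 CPM in control, 57.4 and 59.1 under EA1 siRNA 1, and 52.0 and 56.6 under EA1 siRNA 2. Both control libraries were above all 4 knockdown libraries, and between the siRNAs the log2FC was 0.10 (adjusted p = 0.711). TFAM fell 1.91-fold under EA1 siRNA 1 (log2FC 0.93, SE 0.11, adjusted p = 3.44e-05) and 2.04-fold under EA1 siRNA 2 (log2FC 1.03, SE 0.11, adjusted p = 2.31e-05). TFAM and PPARGC1A therefore moved in opposite directions with each siRNA, and these calls of both genes against control were kept under every alternative run. The TFAM pseudogenes TFAMP1 and TFAMP2 were not among the genes counted, and whether their reads were counted for TFAM was not tested.

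NRF1, the nuclear respiratory factor whose core is shown before TFAM, encodes a factor that serves genes for mitochondrial proteins (ENSG00000106459, chromosome 7, 129611720 to 129757082, plus strand). It was at 22.4 and 19.4 CPM in control, 18.1 and 16.3 under EA1 siRNA 1, and 17.3 and 18.9 under EA1 siRNA 2. The control libraries were above the knockdown libraries by a narrow margin. The averaged log2FC was 0.24, with a 95% interval of -0.09 to 0.58 (adjusted p = 0.226), and NRF1 was not called with either siRNA.

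PPARA encodes the PPAR of fatty acid oxidation (ENSG00000186951, chromosome 22, 46150521 to 46243755, plus strand). It was at 58.8 and 48.2 CPM in control, 81.2 and 80.9 under EA1 siRNA 1, and 84.5 and 65.7 under EA1 siRNA 2. All 4 knockdown libraries were above control. PPARA rose 1.52-fold under EA1 siRNA 1 (log2FC -0.60, SE 0.14, adjusted p = 0.0054) and 1.4-fold under EA1 siRNA 2 (log2FC -0.49, SE 0.14, adjusted p = 0.0192). Without control replicate 2 neither call was kept (log2FC -0.43 and -0.31, adjusted p = 0.0812 and 0.209), and the averaged log2FC was -0.37 (adjusted p = 0.096). Without replicate 1 of EA1 siRNA 2, the call for that siRNA was lost as well (log2FC -0.28, adjusted p = 0.168).

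PPARD, the PPAR expressed in most tissues (ENSG00000112033, chromosome 6, 35342558 to 35428191, plus strand), was at 29.8 and 34.2 CPM in control and 30.1 to 38.0 in knockdown libraries. The groups overlapped. Its log2FC was -0.16 under EA1 siRNA 1 (adjusted p = 0.436) and 0.00 under EA1 siRNA 2, with a 95% interval of -0.33 to 0.34 (adjusted p = 0.987). PPARG, the PPAR of fat cells (ENSG00000132170, chromosome 3, 12287368 to 12434356, plus strand), had 16 and 8 counts in control, 3 and 2 under EA1 siRNA 1 and 3 and 4 under EA1 siRNA 2. Both control libraries were above the knockdown libraries, most of which were at or under a floor of 3 counts, and with these few counts PPARG did not pass the filter. It entered 7 of the 13 alternative fits. With no filter its adjusted p in edgeR was 0.0844 for EA1 siRNA 1, 0.181 for EA1 siRNA 2 and 0.0539 in the average, and it was called higher in control in the average of 1 fit, the one without control replicate 2 (adjusted p = 0.0367). The floor corresponds to 0.395 to 0.505 CPM in these libraries and, like the counts, covers counting error only.

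The RXRs are the obligate partners of PPARs on DNA. RXRA (ENSG00000186350, chromosome 9, 134317098 to 134440585, plus strand) was at 41.3 and 50.01 CPM in control and 43.2 to 50.2 in knockdown libraries, which overlapped. Its averaged log2FC was -0.07, with a 95% interval of -0.33 to 0.19 (adjusted p = 0.662). RXRB (ENSG00000204231, chromosome 6, 33193588 to 33200665, minus strand) was at 28.3 and 28.0 CPM in control, 36.5 and 40.8 under EA1 siRNA 1, and 31.3 and 29.3 under EA1 siRNA 2.

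All 4 knockdown libraries were above control for RXRB. It rose under EA1 siRNA 1 (log2FC -0.46, SE 0.14, adjusted p = 0.0232), while its log2FC was -0.11 under EA1 siRNA 2 (adjusted p = 0.611). The difference between the siRNAs had an adjusted p of 0.236. The call was lost with DESeq2 (adjusted p = 0.119) and without any 1 of the control or EA1 siRNA 1 libraries (0.0813 and 0.122 without a control library, 0.0525 and 0.192 without an EA1 siRNA 1 library). RXRB shares 361 exon bases with SLC39A7 on the opposite strand, which had 846 to 937 counts per library. Reads of such a pair cannot be told apart where counting does not use strand. The study's methods name a stranded library kit, and the strand setting of the counting is not given in the sources used here. RXRG, the third RXR, fell with both siRNAs, from 128.6 and 132.4 CPM in control to 106.2 and 104.7 under EA1 siRNA 1 and 98.4 and 84.5 under EA1 siRNA 2 (averaged log2FC 0.41, adjusted p = 0.0031).

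ESRRA encodes ERRα, the receptor through which PGC-1 coactivators act on many genes for mitochondrial proteins (ENSG00000173153, chromosome 11, 64305497 to 64316743, plus strand). It was at 72.7 and 64.2 CPM in control, 67.7 and 78.2 under EA1 siRNA 1, and 95.6 and 75.7 under EA1 siRNA 2. The EA1 siRNA 1 libraries overlapped control, and those of EA1 siRNA 2 were above it. Its log2FC was -0.09 under EA1 siRNA 1 (adjusted p = 0.633) and -0.32 under EA1 siRNA 2 (SE 0.14, adjusted p = 0.0877), and without replicate 2 of EA1 siRNA 2 the latter was -0.45 (adjusted p = 0.0162). ESRRA shares 284 exon bases with TRMT112 on the opposite strand, which had 171 to 206 counts per library.

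**Figure D3:**
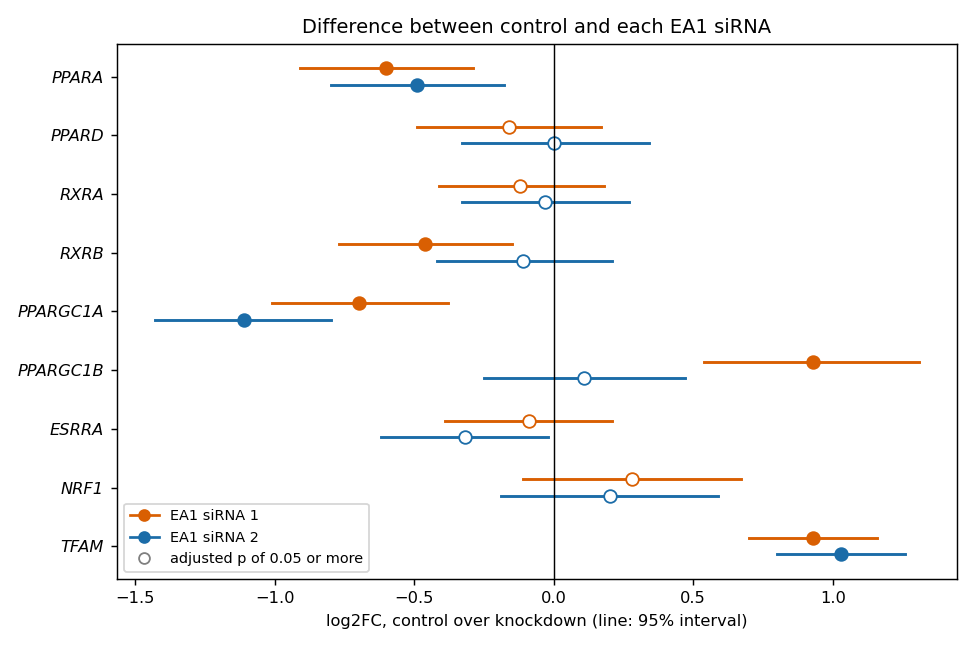
Log2FC of control over knockdown (horizontal axis) for the 9 genes tested, with 95% intervals as lines, for EA1 siRNA 1 and EA1 siRNA 2. Filled points have an adjusted p under 0.05. TFAM lies at 0.93 and 1.03, PPARGC1A at -0.70 and -1.11, and PPARGC1B at 0.93 and 0.11.

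The levels of the 10 genes were also ordered per kilobase of exon. The length was the union of all GENCODE exons of a gene, 13216 bases for PPARA and 4119 for NRF1. The transcripts expressed may be shorter, so that the order of genes at close levels depends on this length. In control libraries PPARGC1A was followed by ESRRA at 22.1 ± 1.96 and TFAM at 21 ± 0.651 CPM per kb (SD, n = 2), whose libraries overlapped. RXRB at 7.23 ± 0.0472 and PPARD at 7.18 ± 0.7 also overlapped and were followed by NRF1 at 5.08 ± 0.521. PPARA at 4.05 ± 0.568 overlapped RXRA at 3.78 ± 0.51, and PPARGC1B at 2.04 ± 0.244 and PPARG at 0.143 ± 0.0806 were lowest. After knockdown TFAM no longer stood beside ESRRA, at 11 ± 0.223 CPM per kb under EA1 siRNA 1 and 10.3 ± 0.615 under EA1 siRNA 2, where ESRRA was at 23.5 and 27.6. PPARA passed NRF1 in the order, at 6.13 against 4.17 CPM per kb under EA1 siRNA 1 and 5.68 against 4.4 under EA1 siRNA 2.

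Over the 6 libraries, the genes whose log2 CPM ran most like each called gene were found by Pearson's r among the 14570 other genes tested, as a description. TFAM ran closest to DEAF1 (r = 0.9988) and RRN3P1 (r = 0.9986), the latter a pseudogene that can share reads with its parent, and 90 genes exceeded an r of 0.99. PPARGC1A ran closest to GATD3B (r = 0.9981), which has a near-identical copy, and POLK (r = 0.9977), with 10 genes over 0.99. PPARA ran closest to MOSPD3 (r = 0.9989) and TSPAN31 (r = 0.9961), and PPARGC1B to ZNF141 (r = 0.9945) and DR1 (r = 0.9922). These values mix the difference between conditions with the spread between libraries.

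The other genes of the pathway were described by 8 lists, chosen with earlier results of these data known. Shares therefore describe the listed genes and do not test the direction of a pathway. Each list is given by its counts in the averaged contrast. Of all genes, 22.1% were called higher and 21.5% lower in control. Of 59 PPAR targets in fatty acid oxidation and lipid storage, 39 were in the table and 36 were tested. Of these, 16 (44.4%) rose after knockdown and 6 (16.7%) fell, with a median log2FC of -0.31 against -0.01 over all genes. Under EA1 siRNA 1 the list had 15 risen and 5 fallen genes, and under EA1 siRNA 2 it had 13 and 5, in comparisons that share the control libraries. The 22 calls were 12 without control replicate 2.

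The PPAR targets that fell include the entry step of long-chain fatty acids. CPT1A, the liver-type carnitine palmitoyltransferase that admits them to mitochondria, was at 443 and 418 CPM in control and 55.7 to 120.9 in knockdown libraries, with no overlap. It fell with each siRNA (log2FC 1.93 and 2.46, adjusted p = 1.63e-05 and 4.94e-06). ACSL1, which activates fatty acids with coenzyme A, was at 1647 and 1749 CPM in control and 542 to 699 in knockdown libraries, and fell likewise (log2FC 1.52 and 1.44, adjusted p = 7.03e-06 and 1.30e-05). ANGPTL4, a secreted inhibitor of lipoprotein lipase and a classic PPAR target, had 19 and 35 counts in control and 0 to 6 in knockdown libraries (averaged log2FC 2.96, adjusted p = 0.00388).

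The targets that rose include PDK4, the kinase that shuts off pyruvate dehydrogenase when fat is burned. It had 2 and 5 counts in control, 41 and 36 under EA1 siRNA 1 and 15 and 23 under EA1 siRNA 2, so that the knockdown libraries were above control at low counts (log2FC -3.56 and -2.58, adjusted p = 2.25e-04 and 0.0036). EHHADH, an enzyme of peroxisomal oxidation, had 10 and 29 counts in control and 38 to 57 in knockdown libraries (averaged log2FC -1.42, adjusted p = 0.00871). SLC27A4, a fatty acid transport protein, rose from 66.5 and 74.1 CPM to 116.7 to 149.2 (averaged log2FC -0.89, adjusted p = 6.95e-05). HADHA and HADHB, the subunits of the mitochondrial trifunctional protein and chosen after their values were seen, rose with averaged log2FC of -0.47 and -0.88 (adjusted p = 0.00368 and 1.33e-04).

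**Figure D4:**
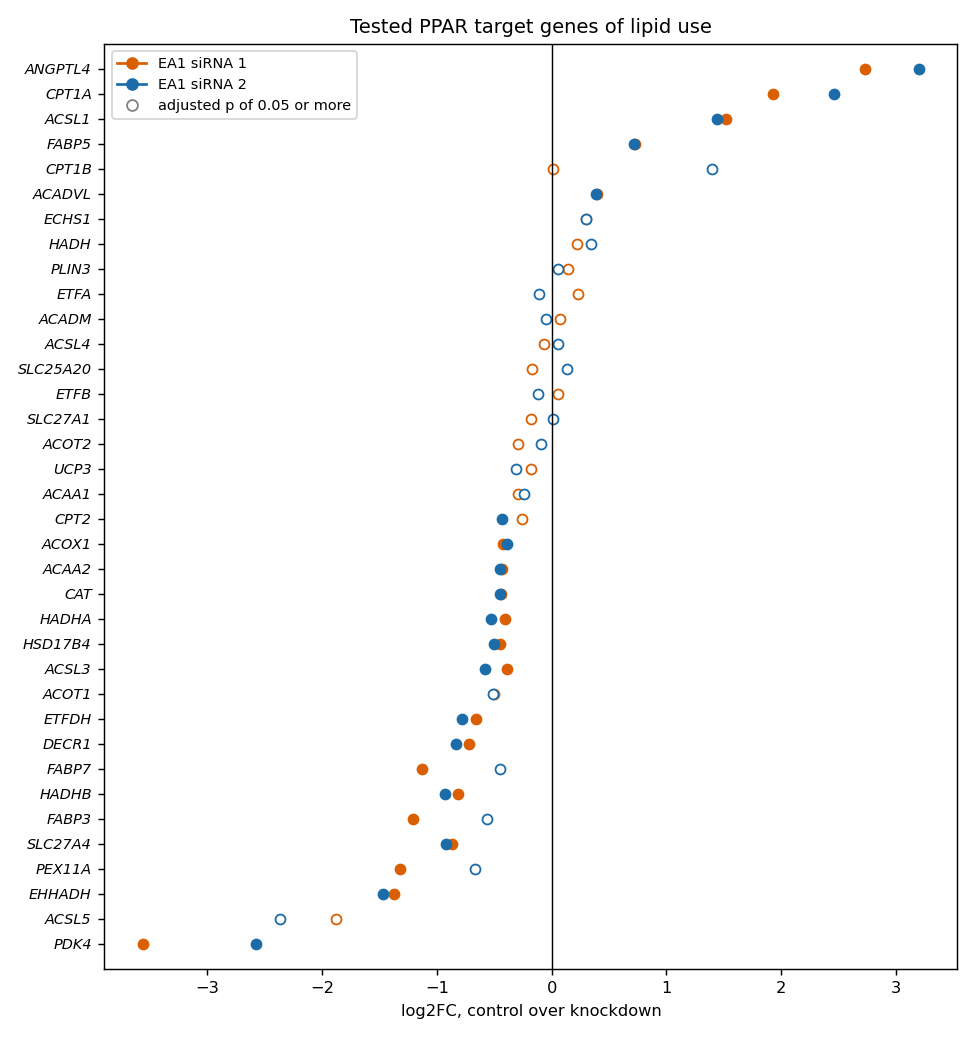
Log2FC of control over knockdown (horizontal axis) for the 36 tested PPAR target genes, ordered by their average. Filled points have an adjusted p under 0.05. ANGPTL4, CPT1A and ACSL1 lie highest, and PDK4 lies lowest at -3.56 and -2.58.

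The listed kinases and factors upstream of PPARGC1A were called mostly in 1 direction as well. Of 34 tested, 16 (47.1%) rose after knockdown and 3 (8.82%) fell, with a median log2FC of -0.20, and the 19 calls were 9 without control replicate 2. CREB1 rose from 40.9 and 46.0 CPM in control to 103.8 to 110.4 in knockdown libraries (averaged log2FC -1.31, adjusted p = 1.27e-06). It is a factor of the ATF/CREB element shown before PPARGC1A, which the study also reports as a recurrent motif of EA1 binding sites. The part of either factor in the rise of PPARGC1A was not tested. TFEB, a lysosomal relative of MITF, rose at low counts, from 17 and 13 in control to 35 to 47 in knockdown libraries. Its averaged log2FC was -1.63 (adjusted p = 0.0026). FOXO3, a forkhead factor of the starvation response, had one of -1.06 (adjusted p = 6.8e-06). PRKAB1, a subunit of the energy sensor AMPK, fell, with an averaged log2FC of 0.54 (adjusted p = 0.00351). Other AMPK subunits, chosen after their values were seen, went both ways in the average. PRKAB2 rose (log2FC -0.56, adjusted p = 0.00797), while PRKAA2 and PRKAG2 fell (0.95 and 0.54, adjusted p = 0.0167 and 0.00507). PRKAA1 and PRKAG1 were not called.

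Coactivators and corepressors of PPAR and PGC-1 were called in both directions. Of 26 tested, 9 fell after knockdown and 6 rose, with a median of -0.09. The corepressor NRIP1 rose, with an averaged log2FC of -0.68 (adjusted p = 8.63e-04), as did the acetyltransferase KAT2B at -1.03 (adjusted p = 4.00e-05). KAT2A, another acetyltransferase, chosen after its values were seen, fell (averaged log2FC 0.72, adjusted p = 9.22e-04). TBL1X, which exchanges corepressors for coactivators, and FBXW7, which marks proteins including PGC-1α for breakdown, fell with averaged log2FC of 1.18 and 1.06 (adjusted p = 2.01e-04 and 5.83e-06).

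Of 15 partner and competing nuclear receptors, 2 fell and 2 rose. RXRG is given above and the retinoic acid receptor RARA fell (averaged log2FC 0.80, adjusted p = 3.06e-04), while RARG and the thyroid hormone receptor THRA rose (averaged log2FC -0.64 and -1.02, adjusted p = 0.00955 and 4.26e-05).

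The listed genes of the machinery that copies and transcribes mitochondrial DNA were called mostly in the direction of TFAM. TFAM itself is not counted in this list. Of 30 genes tested, 12 (40%) fell after knockdown and 1 (3.33%) rose, with a median log2FC of 0.26. DNA2, a nuclease and helicase, TOP3A, a topoisomerase, and PNPT1, an RNA nuclease, fell with averaged log2FC of 1.08, 0.88 and 0.80 (adjusted p = 2.50e-04, 0.00222 and 2.28e-05). TOP2B, another topoisomerase, was the gene that rose (averaged log2FC -0.48, adjusted p = 0.00143). The lists do not separate mitochondrial from nuclear roles of a gene.

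The closest partners of TFAM were not called with either siRNA. POLRMT, the mitochondrial RNA polymerase, was at 41.9 and 40.4 CPM in control, 42.1 and 38.4 under EA1 siRNA 1, and 32.2 and 33.4 under EA1 siRNA 2 (adjusted p = 0.876 and 0.0761). TFB2M, which opens the promoter with it, was at 13.9 and 12.2 CPM in control and 7.30 to 12.7 in knockdown libraries (log2FC 0.22 and 0.61, adjusted p = 0.51 and 0.0782). TFB1M, a methyltransferase of mitochondrial ribosomal RNA, was at 13.6 and 21.5 CPM in control and 12.8 to 18.1 in knockdown libraries, which overlapped.

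Among 14 nuclear factors that act with NRF1, 5 (35.7%) fell and 1 (7.14%), CREB1, rose, with a median of 0.22. CCND1, the cyclin that also restrains NRF1, fell from 1305 and 1379 CPM in control to 96.3 to 205.8 in knockdown libraries (averaged log2FC 3.46, adjusted p = 1.87e-07). NFE2L2, the oxidative stress factor, and GABPB1, a subunit of the ETS factor GABP, fell with averaged log2FC of 0.68 and 0.64 (adjusted p = 6.32e-05 and 0.0035). GABPA, the subunit that binds DNA, was at 46.1 and 44.1 CPM in control and 48.8 to 61.8 in knockdown libraries, which did not overlap. Its log2FC was -0.16 under EA1 siRNA 1 and -0.33 under EA1 siRNA 2 (adjusted p = 0.0618), and the latter was called when replicate number was a block in the fit (adjusted p = 0.0456).

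The 13 mRNAs encoded by mitochondrial DNA are the transcripts that TFAM serves, and for each of them the control libraries overlapped the knockdown libraries. In the averaged contrast 2 were called, MT-ND1 and MT-ND2, both subunits of complex I and higher in control (log2FC 0.39 and 0.44, adjusted p = 0.0436 and 0.0491), with a median of 0.18 over the 13. Under EA1 siRNA 1, 3 were called higher, and under EA1 siRNA 2 the count was 0 in edgeR and in DESeq2, and 0 at an unadjusted p under 0.05. MT-ND1 was at 4861 and 3453 CPM in control, 2798 and 2783 under EA1 siRNA 1, and 4011 and 3156 under EA1 siRNA 2, so that control overlapped knockdown.

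The count for these mRNAs depended on single libraries and on the block. In edgeR it was 0 without control replicate 1 or without either EA1 siRNA 1 library (1, 2 and 3 at an unadjusted p under 0.05), 6 without control replicate 2 or without replicate 1 of EA1 siRNA 2, and 5 with replicate number as a block (4 higher and 1 lower in control). With the block, the count under EA1 siRNA 1 was 5 higher and 1 lower. All mitochondrially encoded genes together took 3.96% to 5.33% of a library. The highest share was in control replicate 1 and the lowest in control replicate 2, with the knockdown libraries between them at 4.03% to 5.01%.

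Mitochondrial import and dynamics had 7 fallen and 6 risen genes among 33 tested, with a median of 0.13. TOMM40, the import channel of the outer membrane, fell with both siRNAs, from 84.3 and 85.9 CPM in control to 37.7 and 42.8 under EA1 siRNA 1 and 62.5 and 56.9 under EA1 siRNA 2. TIMM44 and HSPA9, parts of the import motor, also fell (averaged log2FC 0.59 and 0.43, adjusted p = 0.00141 and 0.00172). TOMM20, a receptor of the same outer membrane complex, rose from 128.3 and 111.0 to 236.2 to 265.6 CPM (averaged log2FC -1.07, adjusted p = 6.69e-06), as did TOMM7 and TIMM50 (averaged log2FC -0.70 each, adjusted p = 0.012 and 5.89e-04).

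**Figure D5:**
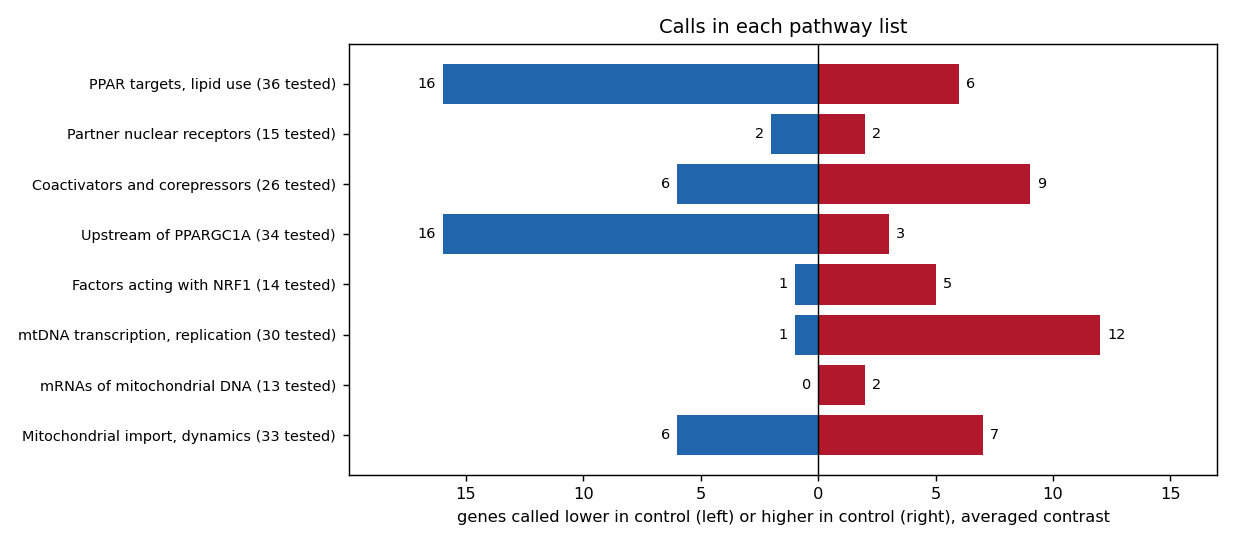
Number of genes called in each of the 8 lists in the average over both siRNAs, to the left lower in control and to the right higher in control. PPAR targets have 16 genes on the left and 6 on the right, and the mitochondrial DNA machinery has 1 on the left and 12 on the right.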

How the data were processed

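Conditions and replicate numbers of the 6 SU-CCS-1 libraries were taken from the sample labels. Other data of the study were not used here. The authors aligned reads with BWA-MEM to hg38, counted them per gene with featureCounts 1.6.3 and deposited raw counts, without pooling of replicates. The annotation and strand setting of the counting are not given in the sources used here. Gene positions and exon lengths came from GENCODE release 44, in which 18063 of 18118 identifiers were found.

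Low counts were filtered with filterByExpr of edgeR 4.0.16, under R 4.3.3 (minimum count 10, minimum total count 15), and the deposited counts were normalized by TMM and fitted with the quasi-likelihood test as 3 conditions of 2 libraries. Benjamini-Hochberg adjustment covered the 14571 genes tested. The fit was tested on simulated data. CPM used TMM-scaled library sizes, and fitted log2FC and their 95% intervals came from the same fit. With 5942808 to 7599305 counts per library, low genes such as PPARG did not pass this filter and entered only some alternative fits. Levels between genes were compared per kilobase of exon, with the union of all exons of a gene as its length.

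The members and lists were chosen with earlier results of these data known. Named genes were the 10 members, the 3 genes per list and direction with the largest averaged log2FC among those called with each siRNA, partners of the members (MITF, CREB1, GABPA, POLRMT, TFB1M and TFB2M), the mitochondrial mRNAs as a group, EWSR1 and ATF1, and the 2 genes most like each member called in the averaged contrast. 1 gene that this rule names is not reported here. Alternatives were RLE size factors, no filter, a minimum of 10 counts per library, the knockdown libraries merged into 1 condition, a fit of the compared libraries alone, DESeq2 1.42.0, each library left out, and a replicate block. Same-numbered libraries deviated together (correlations of 0.130, 0.199 and 0.144 between conditions). The main fit did not pair them, and the replicate block, an alternative, paired them by the numbers from the labels.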

Additional observations from a re-analysis of the deposited data

Results flagged for a closer look

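Of the genes named in the text by the stated rule, 2 differed between the siRNAs by the test of that difference. PPARGC1B had a log2FC of -0.82 for EA1 siRNA 1 over EA1 siRNA 2 (adjusted p = 0.0383 in edgeR), with 14.2 and 13.5 CPM against 23.85 and 24.99. TOMM40 had a log2FC of -0.57 (adjusted p = 0.0352), with 37.7 and 42.8 CPM against 62.5 and 56.9. In the lists, SIRT1 (log2FC 0.83, adjusted p = 0.0379), PRKAG2 (-0.74, 0.0354) and HSPD1 (-0.47, 0.0417), chosen after their values were seen, differed too.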

How the results depend on the processing

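Of the values of the 9 genes that passed the filter under the alternatives, 412 kept their direction and their side of the threshold, 18 lost a call, 2 gained one and 0 reversed. With single libraries left out, the members called ranged from 3 to 5 with EA1 siRNA 1, from 2 to 4 with EA1 siRNA 2, from 3 to 4 in the average (3 without control replicate 2, TFAM, PPARGC1A and PPARG, which passed the filter in that fit) and from 0 to 1 between the siRNAs. With only the libraries compared in the fit, 0 members were called between the siRNAs, by edgeR, with 3 at an unadjusted p under 0.05 (DESeq2 over all 3 conditions called 1). With a library left out, a count of 0 between the siRNAs went with 2 or 3 at an unadjusted p under 0.05. With single libraries left out, calls in the lists ranged from 12 to 23 for PPAR targets, from 9 to 19 upstream of PPARGC1A, and from 0 to 6 for mitochondrial mRNAs. With the replicate block these lists had 24, 20 and 5 calls, and with DESeq2 they had 17, 14 and 1. The block changed no call of the 9 genes. RLE size factors shifted the median gene by 0.02. The cause of these changes was not tested. With 2 libraries per condition, the averaged log2FC of NRF1 had an interval of -0.09 to 0.58, and PPARG, at 2 to 16 counts, entered only some fits.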
